A study of Mus musculus with 50 samples.

Results

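Regulatory T (Treg) cells sorted from the fat of the abdominal cavity (visceral adipose tissue, VAT) were compared with Treg cells from spleen in the arm whose titles carry DT, for diphtheria toxin. The 4 VAT libraries (replicates 5 to 8) and the 3 spleen libraries (replicates 4 to 6) were chosen by tissue and arm, 7 of the 50 libraries of the series. Each library came from 500 to 1000 CD4+ Foxp3-GFP+ cells sorted in 2 rounds, from mice labelled male, aged 20 weeks, whose strain label names the allele Foxp3tm3(HBEGF/GFP)Ayr. With that allele the Foxp3 locus also drives a diphtheria toxin receptor joined to GFP, so GFP marks Foxp3+ cells and the toxin kills them. The series text describes 12-week-old C57B6.Foxp3.eGFP.DTR+ males and DTR- littermates, all given toxin into the abdomen on 3 days in a row and analysed 8 to 9 weeks later. The other arm, with 4 VAT and 3 spleen libraries, is titled PBS, and the genotype label of both arms reads WT. The labels therefore do not settle what the PBS-labelled mice carried or received, nor do they record how many Treg cells the toxin removed in any mouse. Whether each library stands for a different mouse is not stated either, so the p-values reflect only how far these libraries scatter, part of which may be technical.

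Treg cells restrain immune responses under the control of the transcription factor Foxp3. In the visceral fat of adult male mice they form a tissue-adapted population known for the nuclear receptor PPARγ, which controls lipid genes, and for ST2 (Il1rl1), the receptor through which the stromal cytokine IL-33 maintains them. These cells typically also carry Gata3, Klrg1, the chemokine receptor Ccr2 and the growth factor amphiregulin (Areg), whereas spleen holds many resting Treg cells that recirculate through lymphoid organs with the chemokine receptor Ccr7. The comparison asks which genes set fat Treg cells apart from spleen Treg cells when both were sampled weeks after the toxin.

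Total counts ran from 3696953 to 5569390 in the 7 libraries. Gene levels are TMM-normalised CPM, are not corrected for gene length, and are listed by replicate, 5 to 8 for VAT and 4 to 6 for spleen; marker sums are plain CPM. The 6 Treg markers summed to 3666 to 4395 CPM in VAT and 3834 to 4043 CPM in spleen. Of these markers 2 were called higher and 1 lower in VAT, so a level sum does not mean unchanged members. The sum over 9 CD4 T-cell markers was lower in every VAT library, at 5114 to 6083 CPM in VAT and 7597 to 7988 CPM in spleen. Of those 9 markers 4 were called lower and none higher. Adipocyte markers summed to 1.91 to 9.44 CPM in VAT and 8.95 to 9.47 CPM in spleen. Some VAT libraries stood apart. Replicate 7 had a fibroblast marker sum of 1095 CPM, against 43.0 to 93.4 CPM in the other 3 VAT libraries and 39.0 to 45.8 CPM in spleen, and a macrophage marker sum of 124 CPM, against 2.14 to 16.2 CPM in the other VAT libraries and 6.77 to 12.4 CPM in spleen. Counts on 393 immunoglobulin genes summed to 11315 CPM in VAT replicate 5 and 12202 CPM in replicate 7, against 800 CPM in replicate 6, 891 CPM in replicate 8 and 1457 to 1991 CPM in spleen. VAT replicate 8 was the lowest of the 4 VAT libraries for 346 of 690 genes that rose with a VAT mean of at least 10 CPM and no overlap with spleen (50.1%). It was the lowest for 25.4% of all 8811 genes with a VAT mean of at least 10 CPM. Mesothelial marker sums were higher in every VAT library (32.5 to 62.7 CPM in VAT, 5.77 to 12.2 CPM in spleen), with Lrrn4 the called member. Dendritic-cell sums were also higher (58.6 to 80.7 CPM in VAT, 27.0 to 36.6 CPM in spleen), with Xcr1 called and Clec10a at 0 in VAT. The count of dendritic-cell markers called higher was 0 without VAT replicate 5 or 7 or spleen replicate 5 or 6. It was 2 without VAT replicate 8. Endothelial sums were lower (99.9 to 142 CPM in VAT, 209 to 228 CPM in spleen), with Pecam1 called. The part of these other transcripts in the results was not tested, and in such bulk samples fewer cells of a type and less RNA per cell cannot be told apart.

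Of 17731 genes tested in a fit of all 32 peripheral libraries, 1569 differed between VAT and spleen Treg cells of the DT arm (8.85%, edgeR adjusted p under 0.05), 1010 higher (5.7%) and 559 lower (3.15%) in VAT. The genes that rose most by the naming rule encode chemokines and their receptors, AP-1 transcription factors, a heat shock protein, proteases and amphiregulin, and also the plasma-cell transcript Jchain, which was high in VAT replicates 5 and 7. Those that fell most included Gpr83, a G protein-coupled receptor of resting Treg cells, and Igfbp4 and Nsg2, which are usual in naive T cells. The median log2 fold change over all genes tested was 0.03. The 4 VAT and 3 spleen libraries did not overlap for 3751 genes (21.2%), 11.1% with VAT higher and 10.1% with VAT lower. The count depended on single spleen libraries: 961 genes were called without spleen replicate 5 and 1026 without spleen replicate 6. Without VAT replicates 5 and 7 the count was 866, of which 829 were among the 1569 (52.8% of them).

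Foxp3 itself did not pass the test. Foxp3 transcript was at 372, 327, 443 and 403 CPM in the VAT libraries and 267, 363 and 340.4 CPM in the spleen libraries (log2 fold change 0.26 ± 0.21, edgeR adjusted p = 0.554). The 2 sets of libraries overlapped. Il2ra, the high-affinity IL-2 receptor chain, was at 475, 641, 954 and 651 CPM in VAT and 467, 539.9 and 488 CPM in spleen, again with overlap (log2 fold change 0.45 ± 0.20, edgeR adjusted p = 0.206). Ikzf2, the Helios transcription factor, was at 688 ± 72.2 CPM in VAT and 599.6 ± 34.3 CPM in spleen (SD, n = 4 and n = 3), with edgeR adjusted p = 0.487. Among 26 core Treg genes, 7 rose and 7 fell, with a median log2 fold change of 0.30. Ctla4, an inhibitory receptor, rose to 1066 ± 229 CPM in VAT, against 372 ± 13.1 CPM in spleen. Ctla4 rose by 1.52 ± 0.21 on the log2 scale (SE, edgeR adjusted p = 3.66e-06). The cytokine gene Il10 had 81.0, 194, 171 and 75.5 CPM in VAT and 5.85, 3.44 and 12.8 CPM in spleen. Il10 rose by 4.19 ± 0.57 on the log2 scale (SE, edgeR adjusted p = 2.78e-06). Every VAT library lay above every spleen library for both genes. Among those that fell, Gpr83 was at 16.1, 12.6, 16.8 and 22.8 CPM in VAT and 239, 349 and 306 CPM in spleen. Gpr83 fell by 4.12 ± 0.45 on the log2 scale (SE, edgeR adjusted p = 3.48e-08). Izumo1r, the folate receptor 4 of Treg cells, averaged 318 ± 79.2 CPM in VAT and 1449 ± 62.4 CPM in spleen. Izumo1r fell by 2.19 ± 0.26 on the log2 scale (SE, edgeR adjusted p = 1.48e-07). Lrrc32, which docks latent TGF-β on the Treg surface, was at 196, 103, 142 and 174 CPM in VAT and 463, 428 and 444 CPM in spleen. Lrrc32 fell by 1.53 ± 0.34 on the log2 scale (SE, edgeR adjusted p = 0.00238).

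**Figure D1:**
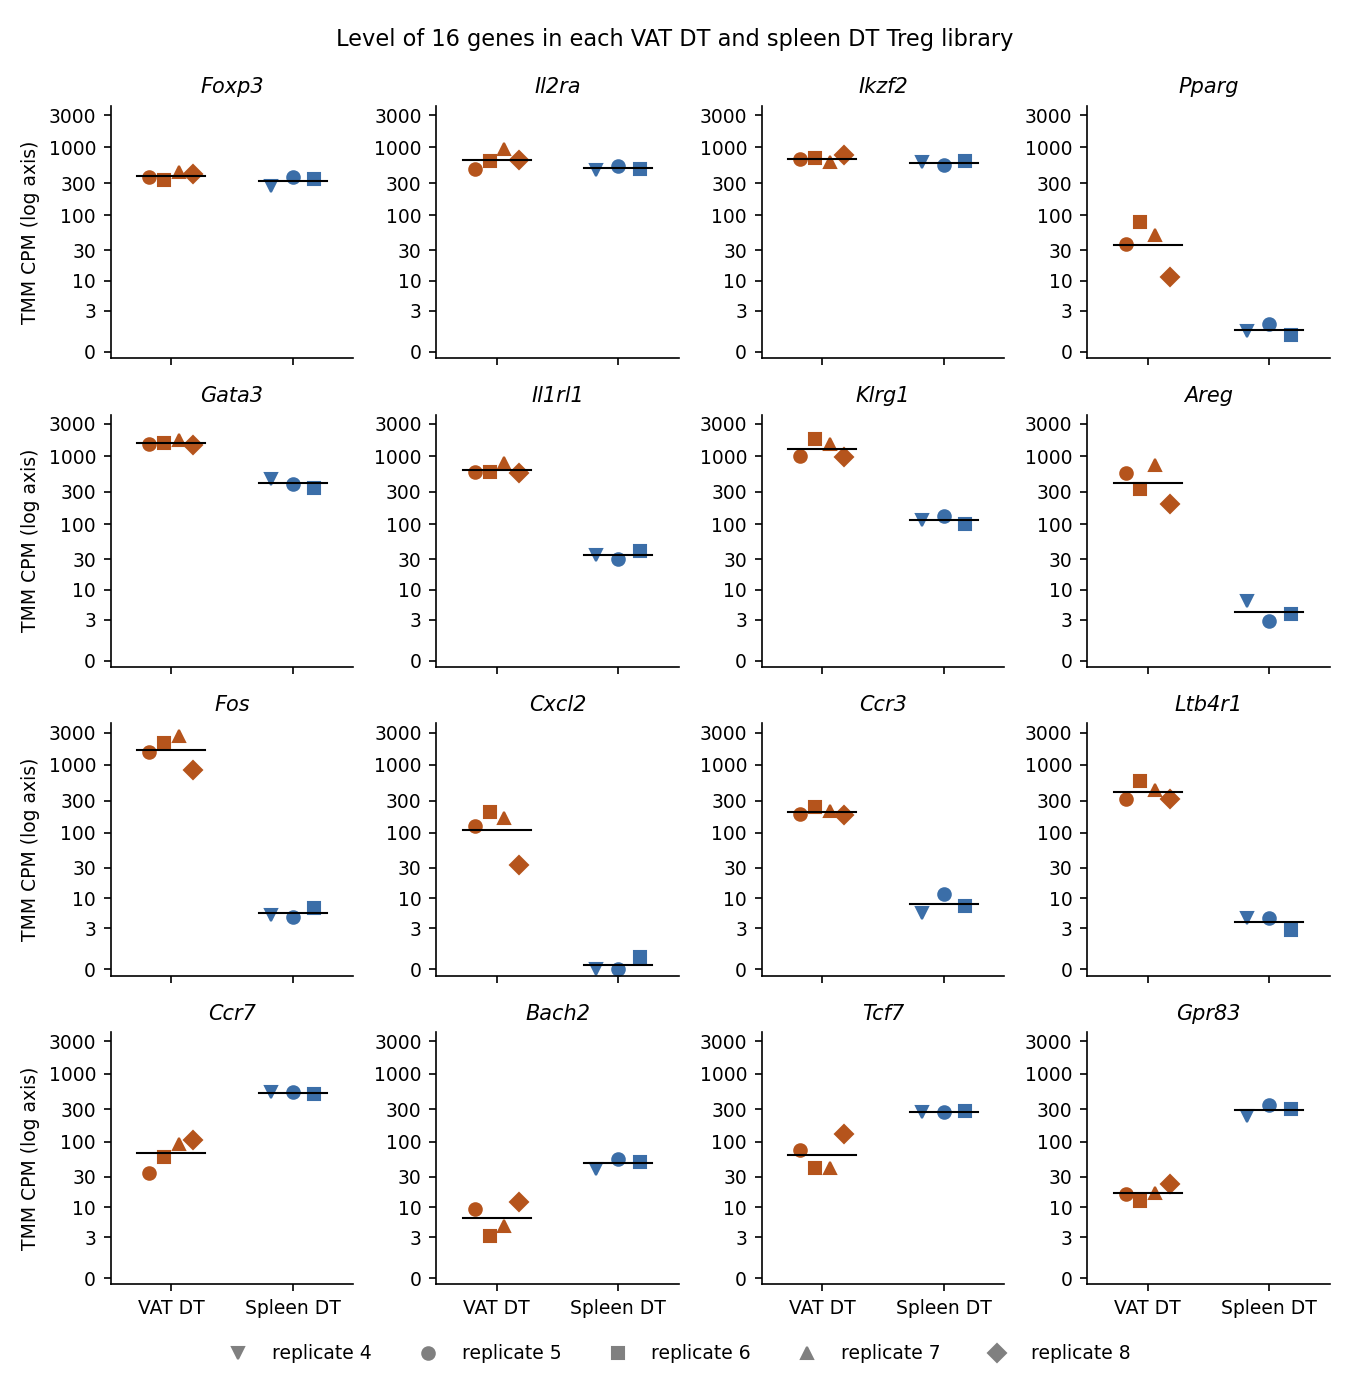
Level of 16 genes in each library, in CPM on a log axis, with VAT DT left of spleen DT; each point is 1 library, its marker shows the replicate, and the black line is the group mean on the log2(CPM + 1) scale. Foxp3, Il2ra and Ikzf2 overlap between the tissues, 9 genes from Pparg to Ltb4r1 lie higher in every VAT library, and Ccr7, Bach2, Tcf7 and Gpr83 lie lower in every VAT library.

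The transcription factors that mark tissue Treg cells rose as a group: 16 of 28 were higher, none was lower, and the median log2 fold change was 1.56. Pparg (chr6:115360951-115490399, plus strand, mm10, GENCODE M21) was at 36.7, 78.4, 51.8 and 11.7 CPM in the VAT libraries and 1.00, 1.53 and 0.756 CPM in the spleen libraries. Pparg rose by 5.29 ± 0.70 on the log2 scale (SE, edgeR adjusted p = 1.74e-06). The lowest VAT library, replicate 8, still held several times the highest spleen value. Gata3, which directs type 2 programmes, was at 1530, 1547, 1719 and 1487 CPM in VAT and 468, 396 and 338 CPM in spleen (log2 fold change 1.97 ± 0.23, edgeR adjusted p = 1.99e-07), with little spread among the VAT libraries. Rora, a nuclear receptor of tissue lymphocytes, reached 434 ± 73.9 CPM in VAT and 75.9 ± 16.8 CPM in spleen (SD, log2 fold change 2.52 ± 0.24, edgeR adjusted p = 1.83e-09). Id2, an antagonist of E proteins, averaged 302 ± 75.3 CPM in VAT and 49.6 ± 7.93 CPM in spleen. Id2 rose by 2.60 ± 0.25 on the log2 scale (SE, edgeR adjusted p = 3.33e-09). The Krüppel-like factor Klf6 was at 1454, 1221, 1543 and 1375 CPM in VAT and 169.6, 201 and 169 CPM in spleen. Klf6 rose by 2.96 ± 0.24 on the log2 scale (SE, edgeR adjusted p = 8.38e-11). The AP-1 partner Fosl2 showed a larger difference, at 398, 261, 471 and 190.2 CPM in VAT and 9.03, 8.02 and 8.57 CPM in spleen. Fosl2 rose by 5.26 ± 0.42 on the log2 scale (SE, edgeR adjusted p = 6.54e-11). Batf, an AP-1 family factor known to be required by tissue Treg cells, was at 198 ± 13.6 CPM in VAT and 183 ± 45.5 CPM in spleen and was not called (edgeR adjusted p = 0.793).

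Lipid genes, which PPARγ controls in fat Treg cells and in adipocytes, moved in part. Of 27 genes of lipid uptake and storage, 6 rose and none fell, and the median log2 fold change was 0.73, but 0.21 without VAT replicate 7 and 0.11 without VAT replicates 5 and 7. Without VAT replicate 6, 1 of these genes fell. Plin2, which coats lipid droplets, was at 216, 386, 178 and 127 CPM in VAT and 17.7, 25.6 and 19.9 CPM in spleen. Plin2 rose by 3.43 ± 0.44 on the log2 scale (SE, edgeR adjusted p = 8.30e-07). Hilpda, a droplet protein that inhibits lipolysis, was at 209, 313, 301 and 114 CPM in VAT and 19.6, 22.7 and 18.4 CPM in spleen. Hilpda rose by 3.53 ± 0.41 on the log2 scale (SE, edgeR adjusted p = 1.43e-07). Dgat1, which makes triglyceride, was at 413, 367, 536 and 193 CPM in VAT and 63.1, 59.8 and 64.5 CPM in spleen. Dgat1 rose by 2.59 ± 0.34 on the log2 scale (SE, edgeR adjusted p = 1.24e-06). For all of these the VAT and spleen libraries were fully apart, with VAT replicate 8 the lowest of its group. The fatty acid transporter Cd36 was at 0.196, 0.210, 13.0 and 0 CPM in VAT and 0.167, 0.191 and 0 CPM in spleen and was not called (edgeR adjusted p = 0.129). Its counts came from VAT replicate 7, the library with the high fibroblast and macrophage sums. In mitochondrial fatty acid oxidation 2 of 20 genes rose and none fell (median 0.19), though 1 fell without VAT replicate 6. Cpt1a, which admits long-chain fatty acids to mitochondria, averaged 168 ± 26.2 CPM in VAT and 75.0 ± 11.3 CPM in spleen. Cpt1a rose by 1.16 ± 0.22 on the log2 scale (SE, edgeR adjusted p = 4.00e-04). The other, Acadl, lost its call without VAT replicate 5 or spleen replicate 5 or 6, which left a count of 1. In cholesterol synthesis 5 of 22 genes rose and none fell (median 0.54). Only 1 rose without VAT replicate 6 or spleen replicate 6, 2 without VAT replicate 7 or spleen replicate 4, and 3 without spleen replicate 5. Hsd17b7 was among them, at 24.1 ± 11.0 CPM in VAT and 6.69 ± 1.75 CPM in spleen (edgeR adjusted p = 0.0014). Of 13 LXR target genes 1 rose and 1 fell (median 0.02), and both counts were 0 without VAT replicate 6 or spleen replicate 6. Beside the counts of these lists, 5.7% of all genes tested were called higher and 3.15% lower.

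The IL-33 receptor stood out within its family. Il1rl1 (chr1:40429570-40465415, plus strand) was at 585, 591, 802 and 575 CPM in VAT and 34.3, 29.6 and 39.1 CPM in spleen. Il1rl1 rose by 4.22 ± 0.37 on the log2 scale (SE, edgeR adjusted p = 3.07e-10). No VAT library came near a spleen library, and replicate 7 was the highest. Of the 13 tested genes of the IL-33 and IL-1 family list, 4 rose and none fell, and the median was 0.26, but 0.02 without VAT replicate 7. Il18rap, an IL-18 receptor chain, rose to 113 ± 25.5 CPM in VAT, against 30.6 ± 12.1 CPM in spleen. Il18rap rose by 1.88 ± 0.37 on the log2 scale (SE, edgeR adjusted p = 6.23e-04). Irak3, an inhibitor of the shared signalling chain, was called at 24.5 ± 4.01 CPM in VAT and 9.01 ± 6.75 CPM in spleen (edgeR adjusted p = 0.0423) and lost the call when any single one of several libraries was left out. RefSeq gives Il1rl1 more than 1 start, and 2 of the windows of 250 bases before a start hold the GATA motif AGATAA. They are shown because Gata3, a GATA factor, rose too. Capitals mark the motif, which stands 217 bases before the first start (window chr1:40429320-40429569, plus strand, GRCm38.p6) on the gene's strand. It stands 103 bases before the second start (window chr1:40439379-40439628, plus strand) on the opposite strand.
Il1rl1 first start: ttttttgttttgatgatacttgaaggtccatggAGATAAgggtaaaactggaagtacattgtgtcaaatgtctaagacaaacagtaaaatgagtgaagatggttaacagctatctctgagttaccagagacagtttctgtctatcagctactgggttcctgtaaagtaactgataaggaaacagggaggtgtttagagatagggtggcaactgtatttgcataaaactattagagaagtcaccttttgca
Il1rl1 second start: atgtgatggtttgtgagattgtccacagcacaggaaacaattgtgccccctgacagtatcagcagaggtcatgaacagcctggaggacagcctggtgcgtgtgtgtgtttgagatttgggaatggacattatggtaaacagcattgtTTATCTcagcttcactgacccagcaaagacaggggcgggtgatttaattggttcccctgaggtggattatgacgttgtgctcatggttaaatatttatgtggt
AGATAA, searched on both strands, occurs in the windows of 11.4% of 27025 genes and of 7.88% of the 12100 genes tested that had a window. Among these it occurs for 8.53% of the 703 genes called higher in VAT and for 11.3% of the 397 called lower. The match is a description and says nothing of whether a factor binds there.

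Areg and Klrg1 separated the tissues as clearly. Areg (chr5:91139599-91148432, plus strand), a growth factor for epithelial and stromal cells, was at 569, 326, 739 and 199.8 CPM in VAT and 6.52, 2.86 and 3.78 CPM in spleen. Areg rose by 6.67 ± 0.45 on the log2 scale (SE, edgeR adjusted p = 8.00e-13). Klrg1 (chr6:122270596-122282882, minus strand), a cadherin-binding inhibitory receptor of terminally differentiated lymphocytes, was at 1000, 1819, 1492 and 987 CPM in VAT and 117, 133 and 99.5 CPM in spleen. Klrg1 rose by 3.51 ± 0.38 on the log2 scale (SE, edgeR adjusted p = 3.44e-08). For both, the lowest VAT library, replicate 8, lay far above the highest spleen library. Of 8 killer lectin-like receptor genes tested, 3 rose and none fell (median log2 fold change 2.88, or 2.48 with genes at 0 in spleen held at their bound). The other 2 called were Klrk1 and Klrd1, natural killer cell receptors at low levels. Klrk1 was at 10.2, 13.5, 1.36 and 0.640 CPM in VAT and 0, 0 and 0.756 CPM in spleen. Klrd1 was at 4.32, 5.68, 0.271 and 0 CPM in VAT and 0, 0 and 0 CPM in spleen. Both were carried by VAT replicates 5 and 6. The same 2 libraries had the higher CD8 T-cell marker sums, 84.6 and 106 CPM against 24.3 and 31.3 CPM in the other VAT libraries and 27.3 to 37.2 CPM in spleen. Klrg1 alone was called without VAT replicate 6, spleen replicate 4 or spleen replicate 5, a count of 1. Marker genes of group 2 innate lymphocytes summed to 2506 to 3444 CPM in VAT and 484 to 643 CPM in spleen. That list holds Gata3 and Klrg1, and most of its sum came from Gata3 and Klrg1 in every VAT and spleen library. Of its 7 tested genes, 5 were called higher and none lower. The count called higher was 2 without VAT replicate 6, and 3 without VAT replicate 8 or any 1 spleen library. Il5 had 175 counts over the VAT libraries and 1 over the spleen libraries, and Calca had 101 and 2. Whether innate lymphocytes carried these transcripts was not tested. A wider list of tissue repair and neuropeptide genes had 13 of 22 higher and none lower (median 1.94). Pcsk1, a proprotein convertase, was at 54.7, 138, 175 and 66.7 CPM in VAT and 0, 0.191 and 3.02 CPM in spleen. Pcsk1 rose by 6.89 ± 0.69 on the log2 scale (SE, edgeR adjusted p = 7.87e-09). Lmna, a nuclear lamin, was at 588, 491, 1069 and 339 CPM in VAT and 19.4, 9.93 and 19.1 CPM in spleen. Lmna rose by 5.27 ± 0.44 on the log2 scale (SE, edgeR adjusted p = 1.55e-10). Gem, a small GTPase, was called at 118 ± 53.7 CPM in VAT and 11.6 ± 6.11 CPM in spleen (edgeR adjusted p = 4.42e-05).

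Receptors that position cells in inflamed or non-lymphoid tissue rose, and the lymph node receptor gene Ccr7 fell. Of 26 homing receptor genes, 13 rose and 3 fell (median 1.1). Ltb4r1, the receptor for leukotriene B4, was at 315, 589, 428 and 319.9 CPM in VAT and 4.68, 4.58 and 2.77 CPM in spleen. Ltb4r1 rose by 6.65 ± 0.51 on the log2 scale (SE, edgeR adjusted p = 2.36e-11). Ccr1, which binds several inflammatory chemokines, was at 59.8, 167, 125 and 55.7 CPM in VAT and 0, 0.191 and 1.51 CPM in spleen. Ccr1 rose by 7.67 ± 0.78 on the log2 scale (SE, edgeR adjusted p = 1.16e-08). Ccr3 (chr9:124021972-124031689, plus strand), the eotaxin receptor, was at 188, 239, 209.9 and 181 CPM in VAT and 5.69, 11.6 and 7.56 CPM in spleen. Ccr3 rose by 4.62 ± 0.39 on the log2 scale (SE, edgeR adjusted p = 1.39e-10). The 4 VAT libraries were alike for Ccr3 and spread more widely for Ltb4r1 and Ccr1, and none came near a spleen library. Ccr2, a receptor for monocyte chemoattractants, reached 769 ± 140.3 CPM in VAT and 72.5 ± 16.3 CPM in spleen. Ccr2 rose by 3.41 ± 0.30 on the log2 scale (SE, edgeR adjusted p = 3.19e-10). Cxcr6, which binds the membrane chemokine Cxcl16, was at 323, 645, 426 and 197 CPM in VAT and 13.9, 8.59 and 12.8 CPM in spleen. Cxcr6 rose by 5.07 ± 0.45 on the log2 scale (SE, edgeR adjusted p = 4.12e-10). Ccr7, which guides cells into lymph nodes, was at 33.5, 59.9, 92.5 and 107 CPM in VAT and 545, 538 and 503 CPM in spleen. Ccr7 fell by 2.86 ± 0.37 on the log2 scale (SE, edgeR adjusted p = 8.94e-07). The highest VAT library stayed well under the lowest spleen library for Ccr7.

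Chemokine genes rose as well: 7 of 11 tested were higher and none was lower (median log2 fold change 3.22), with 4 higher without VAT replicate 5 and 3 without spleen replicate 5. Cxcl2 (chr5:90903871-90905938, plus strand), a neutrophil attractant, was at 125, 206, 167 and 33.3 CPM in VAT and 0, 0 and 0.504 CPM in spleen. Its pooled ratio was 929 (exact 95% interval 257 to 7676, counting error only, over 2389 counts in VAT and 2 in spleen). Its neighbour Cxcl3, which binds the same receptor, was at 7.06, 37.4, 27.9 and 9.17 CPM in VAT and had no count in the 3 spleen libraries. It was at least 93.3-fold higher in VAT, against a floor of 3 counts over the spleen group. Ccl3, a ligand of Ccr1, had 117 counts over the VAT libraries and 2 over the spleen libraries, a pooled ratio of 45.5 (exact 95% interval 12.3 to 380). Its call was lost without spleen replicate 5 (edgeR adjusted p = 0.054). Macrophages make these chemokines too. The macrophage marker sum was 13.9, 16.2, 124 and 2.14 CPM in VAT replicates 5 to 8, and its part in these genes was not tested.

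The windows of 250 bases before the start of 4 genes named here hold the NF-κB consensus, spelled GGGA, any base, then TTTCC. On either strand it is present for 0.414% of 27025 genes and for 0.512% of the 12100 genes tested that had a window. It is present for 1.56% of genes called higher in VAT (11 of 703) and for 1.51% of genes called lower (6 of 397). The windows are shown because Cxcl2, Cxcl3, Ccr3 and the NF-κB inhibitor gene Nfkbia all rose and share these letters. Capitals mark the NF-κB motif and, in Ccr3, also an AP-1 motif (TGANTCA) and a GATA motif (AGATAA), none of which overlap. TGANTCA occurs in the windows of 7.82% of the 27025 genes and of 5.99% of those tested. The NF-κB motif stands 97 bases before the RefSeq start in Cxcl2 (chr5:90903649-90903898, plus strand, GRCm38.p6) and 73 bases before it in Cxcl3 (chr5:90785851-90786100, plus strand). It stands 179 bases before it in Ccr3 (chr9:124021721-124021970, plus strand) and 29 bases before it in Nfkbia (chr12:55492648-55492897, minus strand). In Ccr3 the AP-1 motif stands 144 and the GATA motif 30 bases before the start.
Cxcl2: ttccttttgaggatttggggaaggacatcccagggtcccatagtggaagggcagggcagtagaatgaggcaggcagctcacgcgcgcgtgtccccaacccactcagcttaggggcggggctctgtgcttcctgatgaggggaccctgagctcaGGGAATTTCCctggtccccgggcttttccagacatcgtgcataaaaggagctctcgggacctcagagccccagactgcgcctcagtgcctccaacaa
Cxcl3: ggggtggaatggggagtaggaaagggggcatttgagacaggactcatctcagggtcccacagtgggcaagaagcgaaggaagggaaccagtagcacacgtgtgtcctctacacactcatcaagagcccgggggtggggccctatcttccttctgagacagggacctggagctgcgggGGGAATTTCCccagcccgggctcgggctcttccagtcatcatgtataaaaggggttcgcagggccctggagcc
Ccr3: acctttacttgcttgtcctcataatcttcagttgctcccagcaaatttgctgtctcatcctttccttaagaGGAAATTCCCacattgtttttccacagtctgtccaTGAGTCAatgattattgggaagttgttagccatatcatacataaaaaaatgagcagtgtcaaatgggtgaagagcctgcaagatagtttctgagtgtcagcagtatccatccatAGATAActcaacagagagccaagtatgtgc
Nfkbia: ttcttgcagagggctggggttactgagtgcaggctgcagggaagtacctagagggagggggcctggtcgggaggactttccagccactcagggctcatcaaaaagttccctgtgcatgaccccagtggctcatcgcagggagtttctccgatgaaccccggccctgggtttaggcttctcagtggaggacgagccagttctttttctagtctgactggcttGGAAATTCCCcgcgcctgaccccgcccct
Such a match is a description of the letters, not a binding site, and genes without these letters rose as well.

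Immediate early genes, which are switched on within minutes of a stimulus, had the highest share of called members among the 29 lists. Of 22 genes, 18 rose and 1, Socs3, fell (median log2 fold change 2.89, or 2.7 with the gene at 0 in spleen held at its bound). Fos was at 1531, 2100, 2665 and 844 CPM in VAT and 5.35, 4.96 and 7.06 CPM in spleen. Fos rose by 8.28 ± 0.51 on the log2 scale (SE, edgeR adjusted p = 1.87e-13). Fosb was at 304, 258, 486 and 137 CPM in VAT and 0.669, 0.382 and 1.26 CPM in spleen. Fosb rose by 8.61 ± 0.56 on the log2 scale (SE, edgeR adjusted p = 5.21e-13). Both encode AP-1 subunits, and in both replicate 7 was the highest VAT library and replicate 8 the lowest. Jun, their dimer partner, was at 395, 622, 546 and 344 CPM in VAT and 21.9, 20.2 and 16.9 CPM in spleen. Jun rose by 4.59 ± 0.29 on the log2 scale (SE, edgeR adjusted p = 1.87e-13). Dusp1, a phosphatase that switches off MAP kinases, was at 4092, 4036, 5582 and 2499 CPM in VAT and 153, 94.5 and 125 CPM in spleen. Dusp1 rose by 5.03 ± 0.28 on the log2 scale (SE, edgeR adjusted p = 3.42e-14). Ppp1r15a, which reverses the stress block on translation, reached 1108 ± 305 CPM in VAT and 32.3 ± 3.33 CPM in spleen. Ppp1r15a rose by 5.10 ± 0.32 on the log2 scale (SE, edgeR adjusted p = 1.87e-13). Atf3, a stress factor of the same family, was at 113, 75.7, 256 and 27.7 CPM in VAT and 0.836, 0.382 and 0 CPM in spleen. Atf3 rose by 7.93 ± 0.87 on the log2 scale (SE, edgeR adjusted p = 4.77e-08). The tissues were dissociated by protocols specific to each, so tissue and dissociation cannot be told apart in these genes. The same limit holds for every gene compared between tissues here, the T-cell receptor, NF-κB, heat shock and chemokine genes and Areg included.

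The genes that respond to T-cell receptor signals moved in the same direction: 10 of 20 rose and none fell (median 0.87). Nr4a1, a nuclear receptor that reports receptor signal strength, was at 2731, 1708, 3227 and 1003 CPM in VAT and 213, 124 and 173 CPM in spleen. Nr4a1 rose by 3.67 ± 0.34 on the log2 scale (SE, edgeR adjusted p = 1.61e-09). Nr4a3, of the same family, averaged 335 ± 133 CPM in VAT and 21.2 ± 5.92 CPM in spleen. Nr4a3 rose by 3.98 ± 0.34 on the log2 scale (SE, edgeR adjusted p = 2.45e-10). Dusp5, an ERK phosphatase, averaged 203 ± 81.1 CPM in VAT and 23.5 ± 5.13 CPM in spleen. Dusp5 rose by 3.11 ± 0.29 on the log2 scale (SE, edgeR adjusted p = 1.61e-09). Cd69, an activation antigen that retains cells in tissue, was at 992, 844, 1181 and 605 CPM in VAT and 139, 167 and 134 CPM in spleen. Cd69 rose by 2.62 ± 0.28 on the log2 scale (SE, edgeR adjusted p = 2.19e-08). In the NF-κB pathway 5 of 16 genes rose and none fell (median 0.31). Among the named members that rose, Tnfaip3 and Nfkbia encode inhibitors of the pathway. Tnfaip3, the A20 deubiquitinase, was at 1620, 1058, 2203 and 1102 CPM in VAT and 114, 88.6 and 137 CPM in spleen. Tnfaip3 rose by 3.72 ± 0.37 on the log2 scale (SE, edgeR adjusted p = 5.21e-09). Nfkbia, which holds NF-κB in the cytoplasm, was at 1807, 1448, 2253 and 1083 CPM in VAT and 545, 467 and 500.1 CPM in spleen. Nfkbia rose by 1.71 ± 0.22 on the log2 scale (SE, edgeR adjusted p = 1.41e-06). Nfkbiz, a nuclear IκB protein, averaged 646 ± 231 CPM in VAT and 132 ± 16.3 CPM in spleen. Nfkbiz rose by 2.29 ± 0.24 on the log2 scale (SE, edgeR adjusted p = 1.94e-08). VAT replicates 5 and 7 were the highest for all 3, and no VAT library reached down to spleen.

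Heat shock genes were more uneven. Of 16, 6 rose and none fell (median 0.62). Hspa1a, an inducible HSP70, was at 30.4, 222, 19.0 and 192 CPM in VAT and had no count in spleen. It was at least 566-fold higher in VAT, against the floor of 3 counts over the spleen group, and was not called by limma voom (adjusted p = 0.0669). Its near-identical copy Hspa1b was at 4.90, 22.5, 4.07 and 34.1 CPM in VAT and 0.836, 0 and 0 CPM in spleen, and reads may be split between the copies. For both genes VAT replicates 6 and 8 were high and 5 and 7 low. Hsp90aa1, the stress-inducible form of the chaperone HSP90, was at 176, 278, 174 and 353 CPM in VAT and 79.1, 118 and 64.0 CPM in spleen (log2 fold change 1.49 ± 0.32, edgeR adjusted p = 0.00152), with the same pair of VAT libraries highest.

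Effector molecules were raised in VAT: 11 of 24 tested genes were higher and 3 lower (median 1.5). Besides Areg and Il10, Fgl2, a secreted suppressor protein of Treg cells, was at 688, 838, 720.2 and 453 CPM in VAT and 105, 79.8 and 95.7 CPM in spleen. Fgl2 rose by 2.85 ± 0.43 on the log2 scale (SE, edgeR adjusted p = 1.20e-05). Lta, lymphotoxin alpha, was one of the 3 that fell, to 9.61, 10.7, 14.6 and 9.17 CPM in VAT, against 46.5, 60.3 and 45.1 CPM in spleen. Lta fell by 2.2 ± 0.30 on the log2 scale (SE, edgeR adjusted p = 2.69e-06). Regulators of G protein and cyclic AMP signalling had 8 of 25 higher and 4 lower (median 0.40), with 5 higher without VAT replicate 6, spleen replicate 4 or spleen replicate 6. Rgs2, which shortens Gq signals, was at 500.1, 454, 502 and 318 CPM in VAT and 6.36, 8.02 and 5.54 CPM in spleen. Rgs2 rose by 6.05 ± 0.37 on the log2 scale (SE, edgeR adjusted p = 1.87e-13). Rgs10, of the same family, fell to 89.1 ± 4.95 CPM in VAT, against 292 ± 11.6 CPM in spleen. Rgs10 fell by 1.71 ± 0.17 on the log2 scale (SE, edgeR adjusted p = 7.83e-09). Crem, a cyclic AMP responsive factor, rose to 233 ± 64.5 CPM in VAT, against 33.8 ± 3.07 CPM in spleen. Crem rose by 2.78 ± 0.29 on the log2 scale (SE, edgeR adjusted p = 1.52e-08).

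Surface receptors changed in both directions. Of 23 inhibitory and costimulatory receptors, 3 rose and 8 fell, although their median was 0.25 (0.09 without VAT replicates 5 and 7). Cd200r1, the receptor for CD200, was at 185, 216, 251 and 206 CPM in VAT and 40.3, 40.7 and 34.3 CPM in spleen. Cd200r1 rose by 2.48 ± 0.24 on the log2 scale (SE, edgeR adjusted p = 4.65e-09). Its ligand gene Cd200 was at 13.3, 28.4, 32.01 and 21.96 CPM in VAT and 84.8, 80.6 and 85.2 CPM in spleen. Cd200 fell by 1.81 ± 0.29 on the log2 scale (SE, edgeR adjusted p = 4.71e-05). Receptor and ligand genes moved in opposite directions. Cd96, which binds a nectin-like protein, averaged 64.8 ± 9.46 CPM in VAT and 216 ± 21.9 CPM in spleen. Cd96 fell by 1.73 ± 0.29 on the log2 scale (SE, edgeR adjusted p = 5.75e-05). Cd27, a costimulatory TNF receptor of resting T cells, averaged 421 ± 58.1 CPM in VAT and 777 ± 39.3 CPM in spleen. Cd27 fell by 0.88 ± 0.16 on the log2 scale (SE, edgeR adjusted p = 2.35e-04). In the TNF receptor superfamily 3 of 19 rose and 3 fell (median -0.10, but -0.20 without VAT replicate 7). Tnfrsf10b, the TRAIL death receptor, was at 71.2, 36.8, 68.4 and 46.9 CPM in VAT and 4.85, 5.54 and 7.56 CPM in spleen. Tnfrsf10b rose by 3.23 ± 0.33 on the log2 scale (SE, edgeR adjusted p = 1.23e-08). Tnfrsf14, the herpesvirus entry mediator, averaged 40.1 ± 3.61 CPM in VAT and 92.9 ± 11.6 CPM in spleen. Tnfrsf14 fell by 1.21 ± 0.23 on the log2 scale (SE, edgeR adjusted p = 4.00e-04). Among 25 integrin and adhesion genes, 10 rose and 3 fell (median 0.63), with 1 lower without spleen replicate 4 or 6. Cd44, the hyaluronan receptor, was at 662, 914, 821 and 576 CPM in VAT and 244, 191 and 193 CPM in spleen. Cd44 rose by 1.83 ± 0.21 on the log2 scale (SE, edgeR adjusted p = 7.74e-08). Itgb3 and Itgav, the 2 chains of the vitronectin receptor, had log2 fold changes of 1.70 ± 0.29 and 1.39 ± 0.28 (SE). Cd9, a tetraspanin, was at 15.1 ± 4.71 CPM in VAT and 58.0 ± 10.1 CPM in spleen. Cd9 fell by 1.95 ± 0.35 on the log2 scale (SE, edgeR adjusted p = 1.76e-04). For TGF-β signalling 5 of 20 rose and 3 fell (median 0.24, but 0.09 without VAT replicate 7), with 3 higher without VAT replicate 7, spleen replicate 4 or spleen replicate 5. Furin, which processes pro-TGF-β, was at 125, 106, 171 and 55.2 CPM in VAT and 25.8, 20.6 and 27.7 CPM in spleen. Furin rose by 2.21 ± 0.30 on the log2 scale (SE, edgeR adjusted p = 3.20e-06). Tgif1, a Smad corepressor, averaged 233 ± 73.0 CPM in VAT and 67.9 ± 12.1 CPM in spleen. Tgif1 rose by 1.78 ± 0.22 on the log2 scale (SE, edgeR adjusted p = 6.63e-07). The Bcl2 family had 4 of 17 higher and 2 lower (median 0.21), with 1 lower without VAT replicate 6 or 7 or spleen replicate 5 or 6. Bcl2 itself, a survival factor of resting lymphocytes, was at 46.1, 37.9, 54.5 and 88.9 CPM in VAT and 238, 365 and 302 CPM in spleen. Bcl2 fell by 2.41 ± 0.31 on the log2 scale (SE, edgeR adjusted p = 9.29e-07). The related survival gene Bcl2l1 was at 274, 326, 377 and 219 CPM in VAT and 106, 86.7 and 65.5 CPM in spleen. Bcl2l1 rose by 1.79 ± 0.22 on the log2 scale (SE, edgeR adjusted p = 3.54e-07). Pmaip1, which encodes the pro-death protein Noxa, rose to 93.9 ± 20.8 CPM in VAT, against 13.6 ± 2.48 CPM in spleen. Pmaip1 rose by 2.78 ± 0.28 on the log2 scale (SE, edgeR adjusted p = 7.15e-09).

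Genes of quiescence and recirculation formed the main group that fell: 15 of 24 were lower and 3 higher (median log2 fold change -1.12). Bach2, a repressor that keeps T cells resting, was at 9.22, 3.15, 4.88 and 12.2 CPM in VAT and 38.5, 54.4 and 50.1 CPM in spleen. Bach2 fell by 2.68 ± 0.37 on the log2 scale (SE, edgeR adjusted p = 2.67e-06). Nsg2, a vesicle protein found in naive T cells, was at 8.44, 1.47, 5.43 and 10.7 CPM in VAT and 92.0, 107 and 82.1 CPM in spleen. Nsg2 fell by 3.84 ± 0.43 on the log2 scale (SE, edgeR adjusted p = 7.84e-08). Tcf7, the naive and memory T-cell factor TCF-1, was at 75.1, 39.7, 40.1 and 131 CPM in VAT and 272, 277 and 283 CPM in spleen. Tcf7 fell by 1.95 ± 0.43 on the log2 scale (SE, edgeR adjusted p = 0.00228). In all of these the tissues did not overlap, and replicate 8 was the highest VAT library. Igfbp4, which binds insulin-like growth factors, was at 4.51, 1.05, 36.6 and 12.8 CPM in VAT and 70.8, 175 and 200.3 CPM in spleen (log2 fold change -3.48 ± 0.65, edgeR adjusted p = 3.19e-04), with replicate 7 the highest in VAT. Outside the list, Dtx1, a Notch pathway ubiquitin ligase, was at 3.92, 7.78, 5.43 and 12.4 CPM in VAT and 102, 129 and 82.6 CPM in spleen. Dtx1 fell by 3.82 ± 0.41 on the log2 scale (SE, edgeR adjusted p = 3.71e-08). Tbc1d4, which controls glucose transporter traffic, fell to 20.2 ± 10.3 CPM in VAT, against 180.4 ± 46.6 CPM in spleen. Tbc1d4 fell by 3.16 ± 0.43 on the log2 scale (SE, edgeR adjusted p = 2.77e-06). Gsta4, a glutathione transferase, had the lowest fold change by the naming rule, at 2.16, 1.89, 1.08 and 0.427 CPM in VAT and 33.8, 34.2 and 31.0 CPM in spleen. Gsta4 fell by 4.52 ± 0.61 on the log2 scale (SE, edgeR adjusted p = 2.54e-06). The transcription factor Gata1, usual in red cell precursors, was at 2.94, 2.31, 4.61 and 5.97 CPM in VAT and 24.9, 69.7 and 43.6 CPM in spleen. Gata1 fell by 3.54 ± 0.63 on the log2 scale (SE, edgeR adjusted p = 1.75e-04). Erythroid markers, a list without Gata1, summed to 2.14 to 4.41 CPM in VAT and 2.39 to 4.13 CPM in spleen. The remaining 5 genes of the rule, Slc7a10, Gucy1a1, Treml2, Slc28a2b and Sgk3, had log2 fold changes of -3.91, -3.35, -3.31, -3.20 and -3.08.

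Interferon-stimulated genes were lower in VAT. Of 28, 9 fell and none rose (median -0.75), and 5 fell without VAT replicate 7 or spleen replicate 4. Usp18, which limits interferon signalling, was at 12.9, 16.6, 13.0 and 12.4 CPM in VAT and 83.5, 89.9 and 73.1 CPM in spleen. Usp18 fell by 2.58 ± 0.37 on the log2 scale (SE, edgeR adjusted p = 5.71e-06). Oasl2, an antiviral protein of the 2'-5' oligoadenylate synthetase family, averaged 2.64 ± 1.503 CPM in VAT and 21.2 ± 1.73 CPM in spleen. Oasl2 fell by 3.01 ± 0.52 on the log2 scale (SE, edgeR adjusted p = 1.02e-04). Of 17 interferon-inducible GTPases, 7 fell and none rose (median -0.63; 3 lower without VAT replicates 5 and 7). Gbp2 was at 123, 83.1, 120.2 and 94.3 CPM in VAT and 225, 271 and 248 CPM in spleen. Gbp2 fell by 1.24 ± 0.25 on the log2 scale (SE, edgeR adjusted p = 8.16e-04). Ifi47, an immunity-related GTPase, averaged 349 ± 46.5 CPM in VAT and 731 ± 105 CPM in spleen. Ifi47 fell by 1.07 ± 0.20 on the log2 scale (SE, edgeR adjusted p = 2.39e-04). All 4 VAT libraries lay under all 3 spleen libraries for Usp18, Oasl2, Gbp2 and Ifi47. The 2 sets of libraries did not overlap, in either direction, for 17 of the 28 interferon genes and 15 of the 17 GTPases. Over all genes tested that share was 21.2%. MHC class I genes, which interferon also raises, had 1 of 18 higher and 3 lower (median -0.22). Only 1 was lower without spleen replicate 4 or 6, and none was higher without VAT replicate 5 or 6 or any 1 of the spleen libraries. The nonclassical H2-T24 had the lowest p of this list, at 29.2 ± 2.78 CPM in VAT and 71.1 ± 9.14 CPM in spleen. H2-T24 fell by 1.28 ± 0.18 on the log2 scale (SE, edgeR adjusted p = 5.37e-06). In MHC class II, which presents antigen on professional presenting cells, 2 of 12 rose and 3 fell (median 0.30, but -0.09 without VAT replicate 7). H2-Eb1 was at 22.6, 38.9, 93.0 and 10.7 CPM in VAT and 2.34, 3.44 and 5.80 CPM in spleen. H2-Eb1 rose by 3.44 ± 0.60 on the log2 scale (SE, edgeR adjusted p = 1.30e-04). H2-Ab1 was at 17.7, 12.6, 202 and 6.61 CPM in VAT and 6.86, 2.101 and 3.53 CPM in spleen. It lost its call without replicate 7, the library with the high macrophage sum (edgeR adjusted p = 0.173).

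Few cell cycle genes and some glycolysis genes were called, beside 5.7% called higher and 3.15% called lower over all genes tested. Of 27 cell cycle genes 1 was called higher, Ccne2, and none without VAT replicate 5 or 6 or spleen replicate 4 or 5. Their median log2 fold change was 0.81, but 0.99 without VAT replicate 7 and 1.23 without VAT replicates 5 and 7. Mki67, the proliferation antigen Ki-67, was at 54.7, 135, 71.6 and 47.1 CPM in VAT and 34.3, 21.8 and 45.4 CPM in spleen and was not called (edgeR adjusted p = 0.111), though it was when the 7 libraries were fitted alone (edgeR adjusted p = 0.0312). Mki67 was called with the DT arm fitted alone too (edgeR adjusted p = 0.0125). Replicate 6 was far above the other VAT libraries for Mki67. Rrm1, not called in the main fit, was called with the DT arm alone (edgeR adjusted p = 0.0241) and with the 7 libraries alone (edgeR adjusted p = 0.0153). Ccnb1, also not called in the main fit, was called with a replicate block (edgeR adjusted p = 0.0265). Of 21 glycolysis and hypoxia genes, 4 rose and none fell (median 0.11, but 0.19 without VAT replicate 7), but 2 without VAT replicate 5, 6 or 8 or spleen replicate 4 or 6, and 1 without spleen replicate 5. Egln3, an oxygen-sensing hydroxylase induced by hypoxia, was at 48.5, 46.7, 46.9 and 20.5 CPM in VAT and 6.19, 5.35 and 9.07 CPM in spleen. Egln3 rose by 2.58 ± 0.33 on the log2 scale (SE, edgeR adjusted p = 7.26e-07). The plasma-cell transcript Jchain passed the naming rule with 872, 3.36, 648 and 1.07 CPM in VAT and 0.167, 0 and 0 CPM in spleen, with the higher values in the libraries rich in immunoglobulin transcripts. Without VAT replicates 5 and 7 it was not called (edgeR adjusted p = 0.467).

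**Figure D2:**
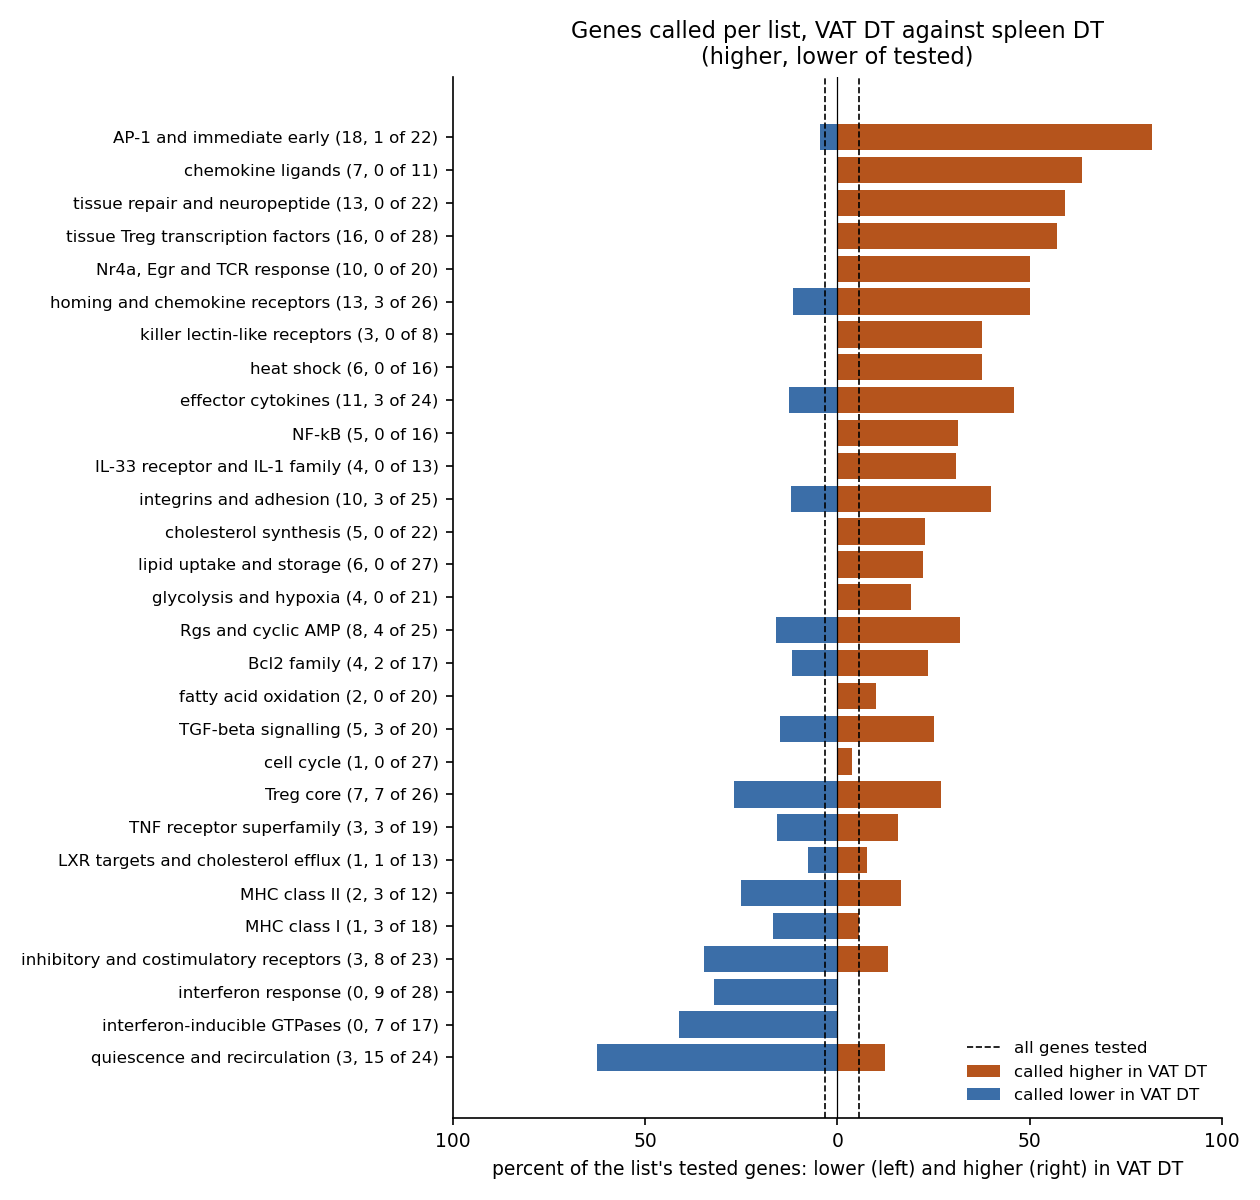
Percent of tested members called higher in VAT DT than in spleen DT Treg cells (bars to the right) or lower (bars to the left) for 29 gene lists; dashed lines mark the 5.7% and 3.15% of all tested genes called higher and lower. Immediate early genes, chemokine ligands, tissue Treg transcription factors and tissue repair genes reach furthest to the right, and quiescence genes and interferon-inducible GTPases furthest to the left.

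The same contrast in the PBS-labelled arm, which shares no library with the DT arm, called 2649 genes (14.9%), 1538 higher (8.67%) and 1111 lower (6.27%), and 1626 when its 7 libraries were fitted alone. Of the 1010 genes higher in VAT in the DT arm, 988 (97.8%) had the same sign in the PBS arm and 789 were called there too, which is 78.1% of the DT list and 51.3% of the PBS list. Of the 559 lower genes, 547 (97.9%) had the same sign and 407 were called there too, 72.8% of the DT list and 36.6% of the PBS list. The 1010 genes had a median log2 fold change of 1.72 in the DT arm and 1.64 in the PBS arm, and the 559 genes -1.24 in the DT arm and -1.30 in the PBS arm. Pparg, in the PBS arm, was at 68.3, 107, 84.5 and 80.6 CPM in VAT and 0, 0.188 and 2.76 CPM in spleen, a log2 fold change of 6.62 ± 0.74 (SE), against 5.29 ± 0.70 in the DT arm. The difference between the arms did not pass the test (edgeR adjusted p = 0.863). Il1rl1 had a log2 fold change of 4.22 ± 0.37 in the DT arm and 5.43 ± 0.39 in the PBS arm (SE). Il10 had 4.19 ± 0.57 in the DT arm and 5.96 ± 0.62 in the PBS arm, a difference that did not pass the test (edgeR adjusted p = 0.751). The interferon genes had 9 of 28 lower in the DT arm and 21 of 28 lower in the PBS arm, with medians of -0.75 in DT and -1.60 in PBS, but none of them passed the test of the difference between arms.

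That test, of the VAT-to-spleen change in the DT arm minus the change in the PBS arm, called 3 of 17731 genes (0.0169%, edgeR), all with a smaller change in the DT arm, while 1160 (6.54%) had an unadjusted p under 0.05. Mapkbp1, a scaffold protein of JNK signalling, was in the DT arm at 59.1, 53.6, 76.2 and 48.8 CPM in VAT and 36.0, 25.8 and 37.3 CPM in spleen, and in the PBS arm at 123, 131, 164 and 55.3 CPM in VAT and 9.33, 14.8 and 14.04 CPM in spleen. Its log2 fold change was 0.85 ± 0.26 in the DT arm and 3.22 ± 0.29 in the PBS arm (SE), a difference of -2.38 (edgeR adjusted p = 0.00533). The VAT libraries were lower and the spleen libraries higher in the DT arm than in the PBS arm, with overlap only in PBS VAT replicate 4. Lamc1, a laminin chain of basement membranes, was in the DT arm at 64.0, 67.9, 101 and 64.6 CPM in VAT and 30.9, 16.04 and 38.6 CPM in spleen, and in the PBS arm at 77.1, 126, 109 and 72.6 CPM in VAT and 12.1, 9.39 and 11.7 CPM in spleen, a difference of -1.73 between the log2 fold changes (edgeR adjusted p = 0.0318). Here the VAT libraries of the arms overlapped and the spleen libraries did not. The third gene, Diaph3, a formin of the actin skeleton named after its values were seen, had at most 12.2 CPM in any of these libraries (difference -3.01, edgeR adjusted p = 0.0318). The test called 0 to 15 genes when single libraries were left out and 0 when the 14 libraries were fitted alone. DESeq2 called 11, of which 5 had a positive difference, and limma voom called 1, with a positive difference.

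**Figure D3:**
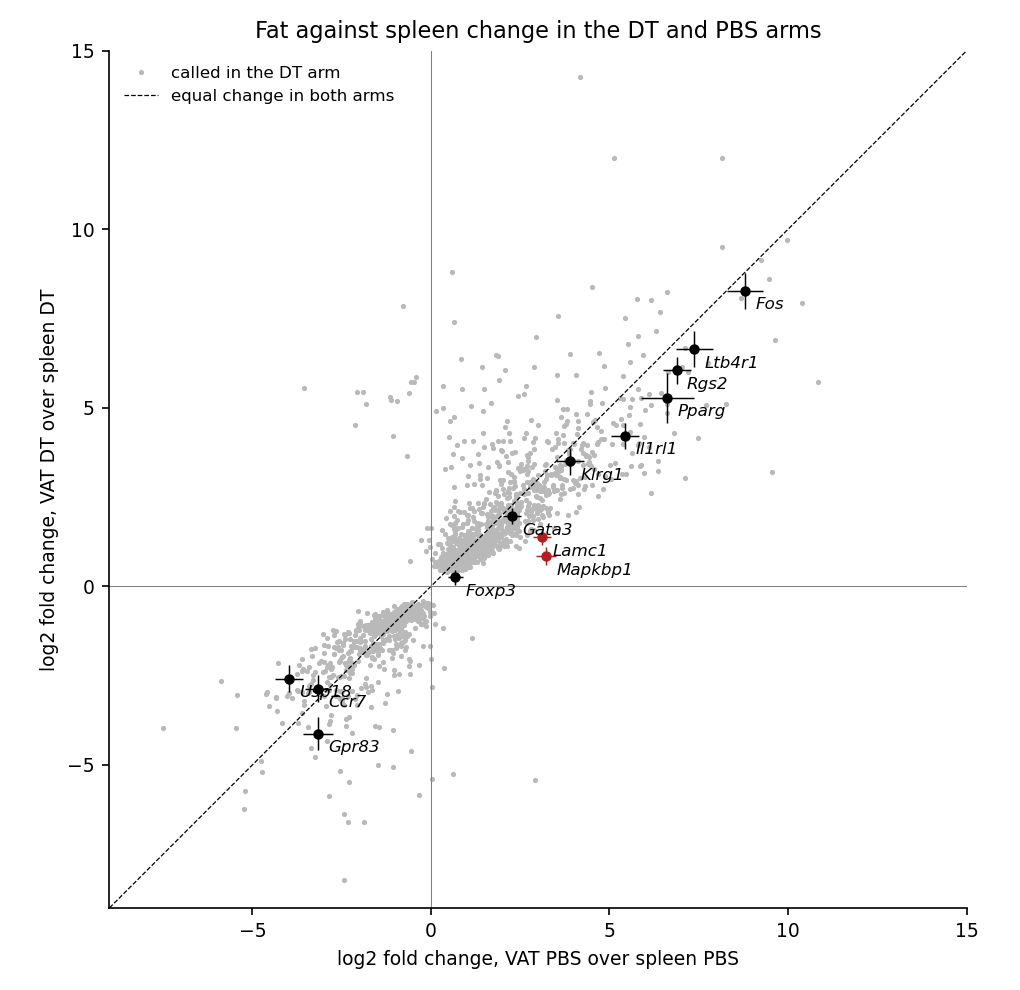
Log2 fold change of VAT over spleen in the PBS-labelled arm (horizontal axis) and in the DT arm (vertical axis); grey points are the genes called in the DT arm, black points named genes with SE bars, and red points Mapkbp1 and Lamc1. Most points lie near the dashed line of equal change, and the red points lie below it.

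To see which of these genes set VAT apart from other non-lymphoid tissues, VAT Treg cells were compared with the mean of ear skin, lung and liver Treg cells of the DT arm (3 libraries each). This comparison uses the same VAT libraries as the one with spleen. It called 2022 genes (11.4%), 1278 higher (7.21%) and 744 lower (4.2%), and 1293 without VAT replicate 8. The split depended on the scaling: it was 910 higher and 867 lower with relative log expression, and 1074 higher and 1115 lower with DESeq2. Single tissues gave 2308 called genes against ear skin (13.0%), 2074 against lung (11.7%) and 1214 against liver (6.85%); without single libraries these counts fell to as few as 1291 against ear skin (without ear skin replicate 5), 1305 against lung (without lung replicate 4) and 620 against liver (without liver replicate 5). Of 26 homing receptor genes, 5 were higher and 5 lower in VAT than in these tissues, and of 11 chemokine genes 3 were higher and 1 lower. Ltb4r1 averaged 413 ± 128 CPM in VAT, 63.6 ± 8.24 CPM in ear skin, 36.7 ± 12.9 CPM in lung and 36.2 ± 8.87 CPM in liver (log2 fold change 3.23 ± 0.27, edgeR adjusted p = 3.83e-10). Pparg averaged 44.7 ± 27.9 CPM in VAT, 8.57 ± 0.994 CPM in ear skin, 6.15 ± 4.19 CPM in lung and 4.22 ± 2.15 CPM in liver (log2 fold change 2.85 ± 0.40, edgeR adjusted p = 4.65e-06). Cxcl2 averaged 133 ± 74.1 CPM in VAT, 37.5 ± 19.6 CPM in ear skin, 3.93 ± 2.95 CPM in lung and 13.3 ± 6.96 CPM in liver (log2 fold change 3.39 ± 0.39, edgeR adjusted p = 2.16e-07). Log2 fold changes over the tissue mean were also positive for Plin2 (2.37 ± 0.28), Klrg1 (1.62 ± 0.25), Ccr3 (1.28 ± 0.23), Fosb (3.12 ± 0.25) and Ctsh (3.19 ± 0.31), a lysosomal protease that was among the largest changes against spleen too, all given with the SE and all called. The tissues stood in different orders for different genes. Areg averaged 459 ± 242 CPM in VAT, 476 ± 92.7 CPM in ear skin, 319 ± 96.4 CPM in lung and 597 ± 91.3 CPM in liver, and was not called against their mean (log2 fold change 0.03 ± 0.24, edgeR adjusted p = 0.961). Il1rl1 averaged 638 ± 109 CPM in VAT, 343 ± 54.9 CPM in ear skin, 473 ± 152 CPM in lung and 439 ± 289 CPM in liver (log2 fold change 0.62 ± 0.23, edgeR adjusted p = 0.0804). Lower in VAT than in these tissues were Dgat1 (log2 fold change -1.60 ± 0.26, edgeR adjusted p = 5.35e-05), Tnfaip3 (log2 fold change -0.79 ± 0.26, edgeR adjusted p = 0.0402) and Gzmb, a cytotoxic protease that averaged 174 ± 47.7 CPM in VAT and 1939 ± 839 CPM in ear skin (log2 fold change -1.97 ± 0.34, edgeR adjusted p = 1.24e-04). Ccr7 fell below spleen in VAT but averaged 3427 ± 856 CPM in lung and 989 ± 584 CPM in liver, above the 529 ± 22.6 CPM of spleen. Of 28 tissue Treg transcription factors, 16 rose against spleen, while 2 rose and 8 fell against the other tissues; of 16 NF-κB genes, 5 rose against spleen, while 2 rose and 10 fell against the other tissues.

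**Figure D4:**
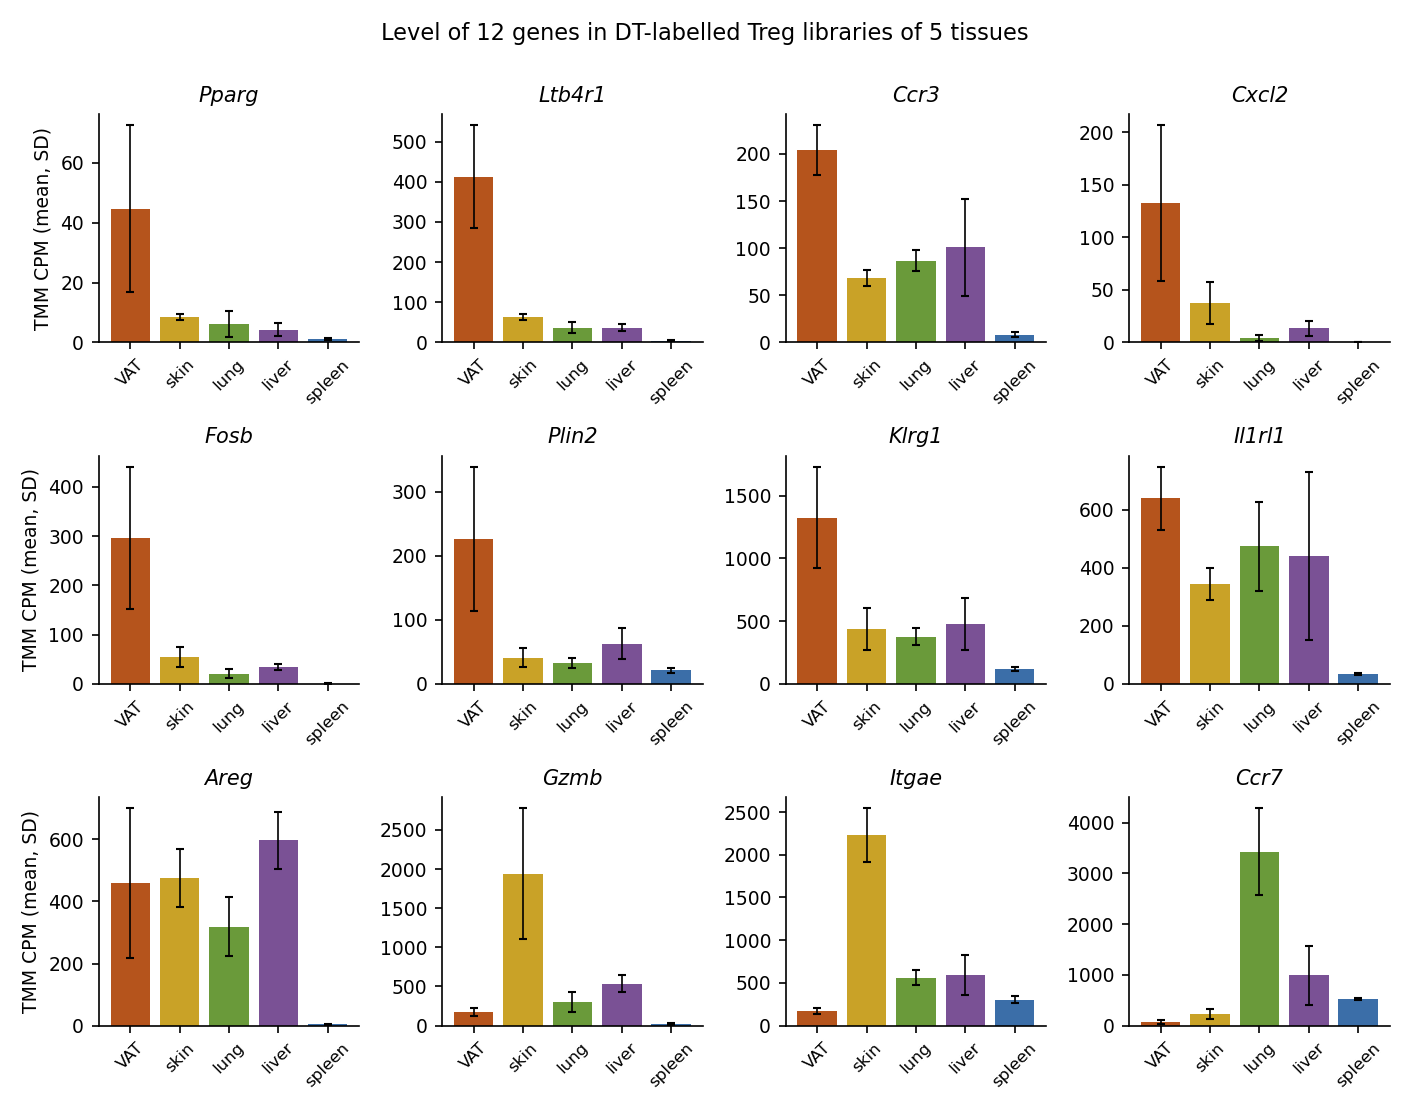
Mean level of 12 genes in DT-arm Treg cells of VAT, ear skin, lung, liver and spleen, in CPM (bars start at 0; error bars are the SD over 4 VAT libraries or 3 of another tissue). Pparg, Ltb4r1, Ccr3, Cxcl2 and Plin2 are highest in VAT, Gzmb and Itgae in ear skin, and Ccr7 in lung.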

How the data were processed

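The authors deposited 1 table of raw read counts, whole numbers per gene symbol (55011 symbols), for all 50 libraries. STAR 2.7.3a, the mm10 build and featureCounts are named in the submitters' processing notes. For the annotation, the strandedness and the handling of multimapping reads no source used here gives a setting, so near-identical copies (Hspa1a and Hspa1b) and overlapping genes can share reads. Libraries were made by ImmGen's low-input method, per the labels, which name no molecular identifiers, so counts are reads. Intervals and floors cover counting error only.

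From these counts, genes were tested with edgeR 4.0.16 in R 4.3.3 (quasi-likelihood F test, two-sided, TMM, filterByExpr with a minimum count of 10 and a minimum total of 15, Benjamini-Hochberg adjustment at 0.05) in 1 fit of the 32 peripheral libraries with a term per tissue and arm. Each SE was obtained by dividing the absolute log2 fold change by the square root of F. DESeq2 1.42.0 and limma 3.58.1 served as alternatives. Total counts of the 32 libraries ran from 2521078 to 6981037. Within the VAT and spleen groups of both arms, all replicates differed by more than sampling noise. Replicates of ear skin, lung and liver were not checked in this way. Among the VAT and spleen libraries, PBS spleen replicate 1 lay furthest from its group. Its chi-square per degree of freedom was 52.5 against replicate 2 and 66.4 against replicate 3, which gave 16.0 against each other. Same-numbered VAT and spleen libraries of the DT arm did not deviate together (r of -0.002 and -0.125 over genes), and the titles number the tissues differently, so numbers were not taken to pair libraries. The scripts were tested on simulated counts.

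Called genes whose higher group averaged 10 CPM or more, with no overlap between the 4 and 3 libraries, were ranked, and the 12 largest changes each way were named, besides up to 4 members with the smallest p and the defining members of each list. Gene models named by number, pseudogenes, receptor and immunoglobulin segments and ribosomal or mitochondrial genes were left out. A few genes meeting it are not reported here. Members, lists and rule were chosen with earlier results of these data known. Positions are from GENCODE M21 (96.2% of symbols matched) and promoter windows from RefSeq on GRCm38.p6.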

Additional observations from a re-analysis of the deposited data

Results flagged for a closer look

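VAT replicate 7 of the DT arm was far from the other 3 VAT libraries in 7 of the 50 values checked, a check that flags about 1 in 20 groups by chance. Its fibroblast and adipocyte-progenitor marker sum was 1095 CPM (43.0 to 93.4 CPM in the others), its macrophage and monocyte sum 124 CPM (2.14 to 16.2 CPM), its dendritic-cell sum 80.7 CPM (58.6 to 62.3 CPM) and its Treg marker sum 4395 CPM (3666 to 3714 CPM). Among named genes it had 802 CPM of Il1rl1 (575 to 591 CPM in the others), 13.0 CPM of Cd36 (0 to 0.210 CPM) and 3.80 CPM of Sgk3, a gene of the serum- and glucocorticoid-regulated kinases (1.18 to 1.28 CPM). It was the highest VAT library both in the Treg marker sum and in these sums of other cell types.

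The VAT-to-spleen change differed between the arms for Mapkbp1, by -2.38 on the log2 scale (DT minus PBS, edgeR adjusted p = 0.00533), and for Lamc1, by -1.73 (edgeR adjusted p = 0.0318). In all 3 DT spleen libraries both genes were above all 3 PBS spleen libraries.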

How the results depend on the processing

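The 1569 genes called between VAT and spleen in the DT arm became 1389 to 2285 under other scaling, filters, tools or sets of libraries and 961 to 1512 without single libraries, and 866 without VAT replicates 5 and 7, an alternative added after seeing the data. Relative log expression kept 99.3% of these calls, DESeq2 98.5% and limma voom 95.2%. The replicate block gave 1071 calls and kept 63.4%, though 2 shared numbers do not show that libraries were paired; with the 7 libraries alone it gave 2044. In the PBS arm 1626 genes were called with its libraries alone and 1951 to 2863 without single libraries. The difference between the arms (DT minus PBS), with 3 genes, all negative, changed in number and direction. It gave 100 genes with no filter on low counts (61 positive, 39 negative) and 11 with DESeq2 (5 positive, 6 negative). With limma voom it gave 1, which was positive, unlike the 3. A floor of 10 CPM and the replicate block each gave 1, which was negative. It gave 0 with the compared libraries alone. Without single libraries it gave 0 to 15 (0 without PBS spleen replicate 1, 15 without PBS spleen replicate 3). Against the mean of 3 tissues the replicate block gave 864 and single libraries 1293 to 1947, and 996 genes were called without VAT replicates 5 and 7. Against ear skin limma voom gave 4450, the block 1448 and single libraries 1291 to 2486, and with relative log expression 855 were higher and 1108 lower, against 1419 and 889. Against lung the block gave 1236 and single libraries 1305 to 1832, and against liver the block gave 608 and single libraries 620 to 1072. The cause of these shifts was not tested. Of the named genes 2, neither called, changed sign between VAT and spleen: Foxp3 was at -0.03 (log2) with the replicate block in the 7 libraries alone and Cd36 at -0.22 without VAT replicates 5 and 7. Of 132 named genes, 118 to 127 kept their side of the threshold without a single library. Genes with few counts are the ones the depth limits most.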

Other observations

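Immunoglobulin transcripts were uneven among VAT libraries of both arms. Igkc, the kappa light chain constant gene, was at 2682, 27.3, 3690 and 20.3 CPM in the DT VAT libraries and at 11.9, 6.49 and 25.7 CPM in the DT spleen libraries. In the PBS arm it was at 1748, 377, 10.8 and 2378 CPM in VAT and at 54.5, 6.57 and 10.8 CPM in spleen. The variable segment Igkv14-126 was at 0, 4.42, 2224 and 3.63 CPM in the DT VAT libraries and at 0 in the DT spleen libraries, so its counts came almost wholly from replicate 7. Trim30b, named after its values were seen, was the only gene called in opposite directions in the arms. It was at 0.196, 1.68, 1.63 and 1.71 CPM in DT VAT and at 0 in DT spleen, against 0, 0.410, 0 and 0 CPM in PBS VAT and 0.718, 1.69 and 2.07 CPM in PBS spleen, and the test of the difference did not pass (edgeR adjusted p = 0.196).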
